A study of Mus musculus with 23 samples.

Results

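The 36 genes described here encode nucleolar proteins that make ribosomes: factors of RNA polymerase I, core proteins of the small nucleolar ribonucleoproteins (snoRNPs), and assembly factors of the small and large ribosomal subunits. They were taken from a list of gene names that sets no condition on measured values, although the list was drawn up with earlier results of these data known. All 36 names matched 1 of the 53379 gene IDs of the count table, and all 36 were among the 16882 genes left after the filter on low counts. RNA was measured in mouse CD4+ T cells of the C57BL/6 background, sorted from spleen by their surface CD45, CD3 and CD4 and their lack of CD8, and kept in culture for 72 h. The knockout (KO) label was Gpr109a-/-, which names the niacin receptor gene Hcar2, and the other label was wild type (WT). Cells of each label were grown under 4 conditions: stimulated with antibodies to CD3 and CD28 with 5 mM niacin, stimulated without niacin, unstimulated with 5 mM niacin, and unstimulated without niacin. IL-2 at 30 IU/ml was present in every culture, so the unstimulated cells were also exposed to it. Of the 8 groups, 7 held 3 libraries, and the unstimulated KO-labelled cells with niacin held 2.

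Ribosomes are built in the nucleolus. RNA polymerase I transcribes the ribosomal DNA into a long precursor RNA, box C/D and box H/ACA snoRNPs methylate it and convert uridines to pseudouridine, and assembly factors fold it, cut it and load it with ribosomal proteins. T cells that are stimulated through their antigen receptor leave quiescence, grow and divide, and enlarged nucleoli and raised ribosome production are well known features of that growth. The transcription factor MYC, which is induced by the same stimulus, is a known activator of many nucleolar genes.

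The 23 libraries, 11 with the KO label and 12 with the WT label, held 13205565 to 30090018 counts. The lowest total was library 3 of the unstimulated KO-labelled cells without niacin, against 20604050 for the next lowest. The header of its count column alone lacked the tag jax, and the part of this difference was not tested. Genes of ribosomal RNA type took 4.42% of the counts of that library and 1.22% to 2.58% of the counts elsewhere. Mitochondrial transcripts took 0.187% and 0.216% of the counts in libraries 1 and 2 of the stimulated WT-labelled cells with niacin, against 0.605% in library 3 of that group. In library 1 of the unstimulated WT-labelled cells without niacin they took 0.346%, against 0.937% and 0.802% in libraries 2 and 3. Counts of Hcar2 went against the genotype labels: 169 counts were spread over 10 of the 11 KO-labelled libraries, and 1 count fell in the 12 WT-labelled libraries. Directions of genotype are therefore given by label, and which cells lacked the receptor cannot be told from these counts. All 10 CD4 T cell markers were detected in every group, with a summed level of 3924 to 6728 CPM (counts scaled to library size). Summed B cell markers lay at 418 to 1110 CPM, most of it Ighm, and NK cell markers at 101 to 245 CPM, most of it Nkg7, while Cd79a reached at most 7.14 CPM and Ncr1 5.68 CPM in any library. Both CD8 genes together lay at 7.88 to 29.2 CPM, and the myeloid list at 0.93 to 12.6 CPM. In bulk RNA, fewer cells of a type and less RNA per cell cannot be told apart.

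Levels per transcript length, as TPM (transcripts scaled to a fixed sum in each library), set the members in order in unstimulated WT-labelled cells without niacin. The highest were Nop10, the smallest core protein of the box H/ACA snoRNP, at 295 ± 26.3 TPM, and Npm1, the abundant nucleolar scaffold protein nucleophosmin, at 294 ± 75.3 TPM (SD, n = 3 each), which did not differ beyond their spread. Bop1, Nhp2, Nop56 and Ncl followed at 201, 201, 183 and 176 TPM. The lowest was Utp20, a very large protein of the small subunit processome, at 15.7 ± 2.12 TPM, below Rrp1b at 24.3 ± 4.86 TPM and Gnl3 at 25.3 ± 1.07 TPM. The length used is the merged exon length of the table, which is 10188 bases for Ncl, so the TPM of Ncl is lowered by exons that its main transcript does not hold. Merged length and longest coding sequence were 7702 and 2172 bases for Rrp1b, 6101 and 1614 for Gnl3, and 10199 and 8367 for Utp20. The order of TPM, also at its low end, therefore depends on the length used. Together the members took 0.460% to 0.499% of the counts in stimulated KO-labelled cells with niacin, against 0.383% and 0.385% in their unstimulated cells. In the WT-labelled cells with niacin the share was 0.302%, 0.361% and 0.400% after stimulation, against 0.377% to 0.436% without it.

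Promoter sequences bear on whether members that moved together share letters near their start. RefSeq promoters (GRCm38.p6) were at hand for 31 of the 36 members, and the 250 bases before each start were searched on both strands. The core of the ETS family site, CCGGAAG, lay in 6 of the 31 members (19.4%), against 7.83% of the 27025 genes with a promoter. The MYC E-box CACGTG lay in 2 of the 31 (6.45%), Nop2 and Rrn3, against 6.86% of all genes. The windows below hold the 6 members with the ETS core, each on the strand of its gene with the core in capitals, and they are shown because all 6 rose on stimulation in at least 1 comparison.
Gar1, chr3:129831408-129831464, minus strand: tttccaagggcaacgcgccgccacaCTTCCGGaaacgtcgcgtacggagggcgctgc
Nhp2, chr11:51619725-51619772, plus strand: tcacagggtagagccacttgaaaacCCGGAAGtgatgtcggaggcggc
Nolc1, chr19:46075808-46075846, plus strand: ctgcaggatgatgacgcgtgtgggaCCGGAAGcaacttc
Nop2, chr6:125131820-125131876, plus strand: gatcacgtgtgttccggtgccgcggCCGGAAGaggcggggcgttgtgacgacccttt
Polr1c, chr17:46248056-46248112, minus strand: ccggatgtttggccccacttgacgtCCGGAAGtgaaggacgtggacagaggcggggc
Utp4, chr8:106893572-106893628, plus strand: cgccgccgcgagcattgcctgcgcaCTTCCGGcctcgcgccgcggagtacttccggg

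In Gar1 and Utp4 the core stood on the opposite strand, and Utp4 held it again 24 bases further on. The motif began 14 to 43 bases before the RefSeq start in these 6 genes. By the deposited coordinates Nhp2 begins earlier, at 51619735, and its core lies inside the gene. The Nop2 window also holds the E-box, in lower case, near its left end. Among the 15 members with a promoter that rose in a stimulation comparison, 6 held the ETS core (40.0%), and among the 8 that fell none did. This split was made from the calls given below, and the share among all genes that rose or fell was not counted. It is therefore no evidence that the core goes with the rise. The median GC content of the member promoters was 57.2%, against 52.4% over all. A match is a description of letters, and no binding was measured.

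Stimulation was compared 4 times, once for each genotype label with and without niacin, and these comparisons share no library. After stimulation 18 members rose and 1 fell in KO-labelled cells with niacin, where 24.5% of all tested genes rose and 25.3% fell (edgeR quasi-likelihood test, Benjamini-Hochberg adjusted p below 0.05). In WT-labelled cells with niacin 10 rose and 8 fell, where 26.0% of all genes rose and 26.6% fell. In KO-labelled cells without niacin 15 rose and 1 fell, against 25.2% and 27.5% of all genes. In WT-labelled cells without niacin 8 rose and 7 fell, against 23.4% and 21.7% of all genes. The median log2 fold change of the 36 was 0.58, -0.02, 0.43 and -0.10 in the same 4 comparisons, beside -0.07, -0.10, -0.13 and -0.07 over all genes. Markers of other cells moved with stimulation too: of 7 NK cell markers tested 1 rose and 4 or 5 fell in each comparison, and of 9 B cell markers 0 rose and 1 or 2 fell. The summed NK list lay at 152 to 245 CPM in stimulated and 101 to 227 CPM in unstimulated cells, and the summed B cell list at 570.0 to 864 CPM in stimulated and 418 to 1110 CPM in unstimulated cells. Their part in the changes of the members was not tested.

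The KO-labelled counts rest in part on library 3 of the unstimulated cells without niacin, in which 18 members lay more than 1.5-fold below the other libraries of its group and 5 lay more than 1.5-fold above. Without it 16 members rose and 3 fell in KO-labelled cells without niacin, where 27.2% of all genes rose and 27.2% fell, and the median log2 fold change was 0.30. The 3 that fell were then Ubtf, Wdr12 and Polr1a. In WT-labelled cells with niacin, leaving out libraries 1 and 2 of the stimulated group together left 6 members that rose and 1 that fell, where 15.5% and 11.2% of all genes did.

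**Figure D1:**
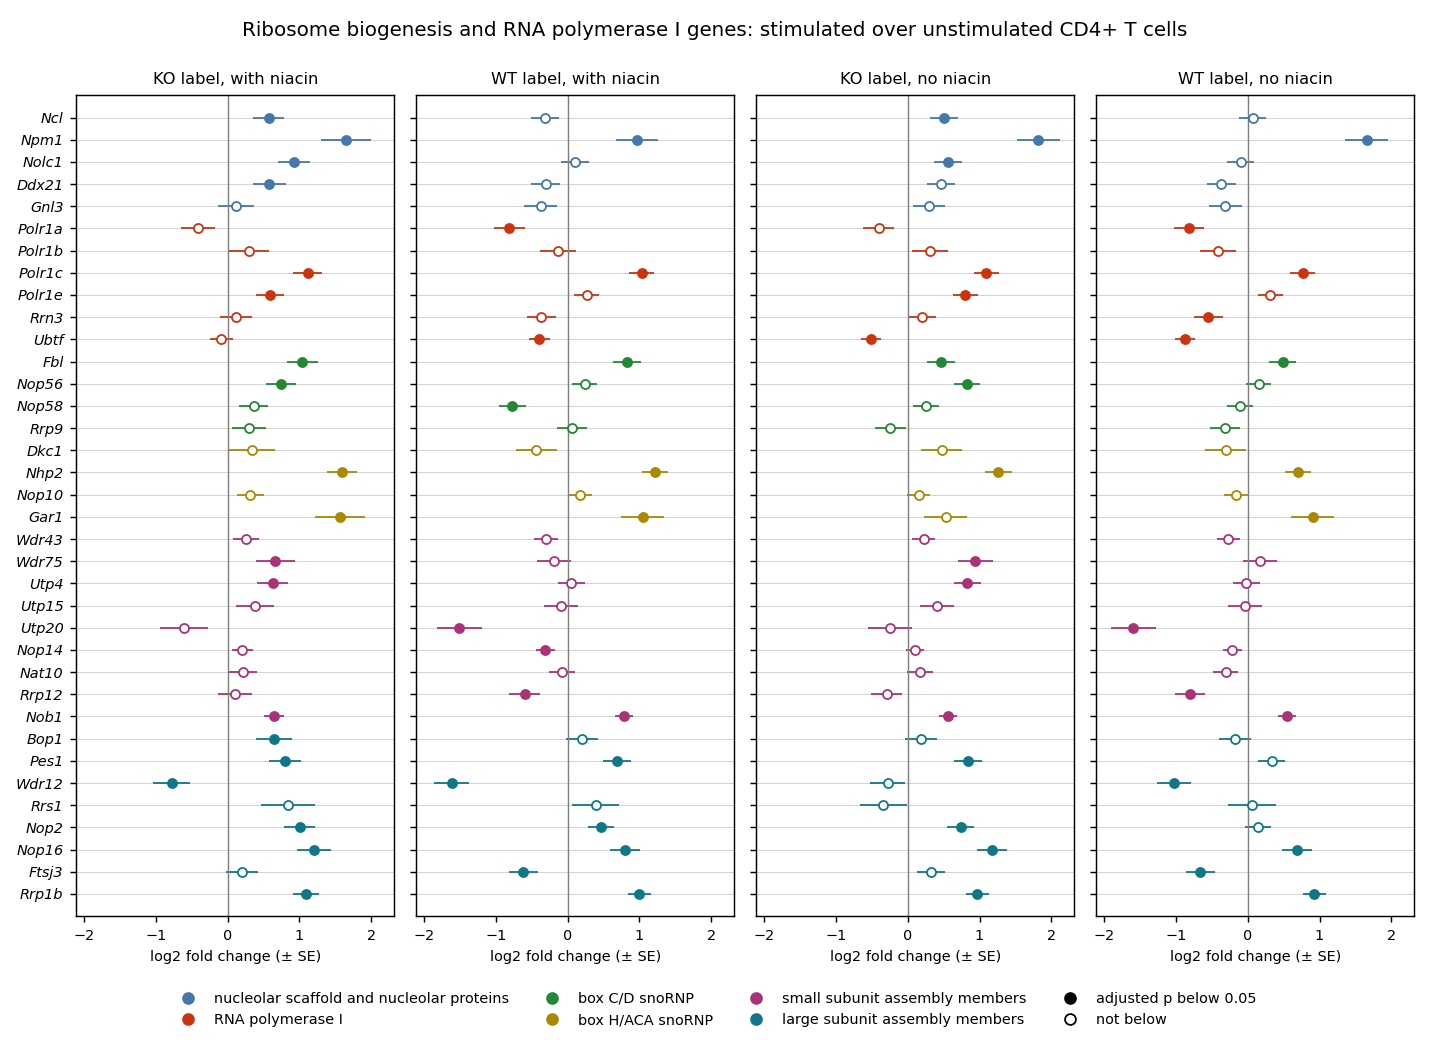
Log2 fold change (stimulated over unstimulated, ± SE) of the 36 members, ordered by role, in 4 panels: KO label with niacin, WT label with niacin, KO label without niacin and WT label without niacin. Filled points have an adjusted p below 0.05; 18, 10, 15 and 8 members rose and 1, 8, 1 and 7 fell in the 4 panels.

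The plot of log2 fold changes by role shows that the direction differed between members and not only between cells. Across the 4 comparisons 18 members rose at least once, 9 fell at least once, 9 passed in none, and 0 rose in one and fell in another. Over all 16882 genes, 34.5% rose at least once, 40.6% fell at least once, 25.1% passed in none and 0.219% rose in one and fell in another. Rises in all 4 comparisons were seen for 7 members: Npm1, Polr1c, Fbl, Nhp2, Nob1, Nop16 and Rrp1b, beside 16.1% of all genes. Of these, the calls of Polr1c, Nhp2, Nob1 and Rrp1b held in every alternative run. The rise of Fbl without niacin was lost in 10 of 11 alternatives in KO-labelled cells and in 7 of 11 in WT-labelled cells, that of Npm1 in WT-labelled cells with niacin in 1 of 12, and that of Nop16 in WT-labelled cells without niacin in 1 of 11. Falls in 2 or more comparisons were found for 6 members, beside 27.6% of all genes. Ubtf and Wdr12 fell in 3 comparisons each, and Polr1a, Utp20, Rrp12 and Ftsj3 in 2 each, both of them in WT-labelled cells. The 9 that passed in none were Gnl3, Polr1b, Rrp9, Dkc1, Nop10, Wdr43, Utp15, Nat10 and Rrs1. With niacin, the 10 members that rose in WT-labelled cells were all among the 18 that rose in KO-labelled cells (100% of 10 and 55.6% of 18), beside 77.0% and 81.9% over all genes that rose. Without niacin, 7 members rose under both labels, which is 46.7% of the 15 in KO-labelled cells and 87.5% of the 8 in WT-labelled cells, beside 76.9% and 82.9% over all genes that rose.

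Among the 5 nucleolar scaffold and nucleolar proteins, 4 rose in KO-labelled cells with niacin, 1 in WT-labelled cells with niacin, 3 in KO-labelled cells without niacin and 1 in WT-labelled cells without niacin, and none fell. Npm1 (ENSMUSG00000057113, chr11:33152287-33163206), a chaperone of ribosomal proteins and of pre-ribosome export, changed most in this group. Stimulated KO-labelled cells with niacin held 750.1, 745 and 553 CPM of Npm1, against 222 and 213 CPM in unstimulated cells, a log2 fold change of 1.65 ± 0.34 (SE, edgeR adjusted p = 0.000559). Stimulated WT-labelled cells with niacin held 322, 383 and 784 CPM, against 290.1, 244 and 226 CPM, a log2 fold change of 0.97 ± 0.29 (edgeR adjusted p = 0.00905). All stimulated libraries lay above all unstimulated ones in both, and library 3 of the stimulated WT-labelled cells stood far above the other two. Without that library the log2 fold change was 0.48 and the call was lost (edgeR adjusted p = 0.134). Without niacin, stimulated KO-labelled cells held 710.3, 710.1 and 656 CPM, against 269, 214 and 104 CPM in unstimulated cells (log2 fold change 1.82 ± 0.30, edgeR adjusted p = 4.3e-05). Stimulated WT-labelled cells without niacin held 668, 758 and 787 CPM, against 169, 268 and 265 CPM (1.65 ± 0.30, edgeR adjusted p = 0.000145). Again no groups overlapped, and library 3 of the unstimulated KO-labelled cells was the lowest of all. Npm1 has 8 processed pseudogenes that match its coding sequence over at least 300 bases at 90% identity or more, and their summed counts were 1.52% of those of Npm1.

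Ncl (ENSMUSG00000026234, chr1:86344719-86359400) encodes nucleolin, which binds the precursor RNA and ribosomal DNA chromatin. Its level was 652, 685 and 637 CPM in stimulated KO-labelled cells with niacin, against 434 and 451 CPM in unstimulated cells, and it rose (log2 fold change 0.57 ± 0.22, edgeR adjusted p = 0.0347). That call was lost in 7 of 10 alternatives, among them leaving out any 1 of the 5 libraries (edgeR adjusted p = 0.0517 to 0.158 where lost). In KO-labelled cells without niacin Ncl rose as well (0.51 ± 0.19, edgeR adjusted p = 0.0325), but without library 3 of the unstimulated cells it had 0.32 (edgeR adjusted p = 0.143). Under the WT label with niacin it was 340.4, 348 and 536 CPM after stimulation, against 642, 468 and 415 CPM, and did not pass (-0.32 ± 0.19, edgeR adjusted p = 0.17). The stimulated and unstimulated libraries overlapped there. Nolc1, a chaperone of snoRNPs in the nucleolus, rose in KO-labelled cells with niacin (189, 226 and 259 CPM, against 121 and 116 CPM; 0.92 ± 0.22, edgeR adjusted p = 0.00174). In WT-labelled cells with niacin Nolc1 had a log2 fold change of 0.10 ± 0.19, and its libraries overlapped. Ddx21, an RNA helicase that senses the state of RNA polymerase I and II transcription, rose in 1 comparison, in KO-labelled cells with niacin (0.58 ± 0.22, edgeR adjusted p = 0.0373), and the call was lost in 5 of 10 alternatives. Gnl3, the nucleolar GTPase nucleostemin, had log2 fold changes between -0.38 and 0.29 and passed in none.

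The 6 RNA polymerase I members split by direction. Polr1c (ENSMUSG00000067148, chr17:46243920-46248054), a subunit that RNA polymerases I and III share, rose in all 4 comparisons. It held 55.3, 63.5 and 67.1 CPM in stimulated KO-labelled cells with niacin, against 24.8 and 32.4 CPM (log2 fold change 1.12 ± 0.20, edgeR adjusted p = 0.000123). Stimulated WT-labelled cells with niacin held 51.5, 69.2 and 54.0 CPM, against 32.0, 24.2 and 29.2 CPM (1.03 ± 0.17, edgeR adjusted p = 5e-05). The stimulated libraries were above the unstimulated ones without overlap, and the same held without niacin, where the log2 fold change was 1.09 ± 0.17 in KO-labelled and 0.77 ± 0.17 in WT-labelled cells. Polr1e, a subunit specific to RNA polymerase I, rose in KO-labelled cells with niacin (0.59 ± 0.20, edgeR adjusted p = 0.0177) and without it (0.80 ± 0.18, edgeR adjusted p = 0.000735). In WT-labelled cells its log2 fold changes were 0.26 and 0.31, with no call although the libraries did not overlap.

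Polr1a, the largest catalytic subunit, went the other way. It held 39.2, 63.3 and 65.5 CPM in stimulated WT-labelled cells with niacin, against 95.3, 99.3 and 100.4 CPM in unstimulated cells (log2 fold change -0.81 ± 0.21, edgeR adjusted p = 0.00323). Without niacin it held 40.3, 71.2 and 58.0 CPM, against 98.7, 106 and 94.2 CPM (-0.82 ± 0.21, edgeR adjusted p = 0.00369). Neither comparison had overlapping libraries. In KO-labelled cells the log2 fold change of Polr1a was -0.41 both with niacin (± 0.23) and without it (± 0.21), and neither passed. Polr1b, the other catalytic subunit, had values from -0.42 to 0.31 and passed in none.

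Ubtf (ENSMUSG00000020923, chr11:102304560-102319742) encodes UBF, which bends and holds open the ribosomal DNA promoter. In WT-labelled cells without niacin it held 116, 131 and 155 CPM after stimulation, against 253, 261 and 223 CPM (log2 fold change -0.88 ± 0.14, edgeR adjusted p = 4.85e-05). In KO-labelled cells without niacin it held 140.4, 197 and 191 CPM, against 233, 234 and 288 CPM (-0.52 ± 0.14, edgeR adjusted p = 0.00481). It fell in WT-labelled cells with niacin as well (157, 173 and 144 CPM, against 209, 203 and 209.8 CPM; -0.39 ± 0.14, edgeR adjusted p = 0.0254), a call lost in 5 of 12 alternatives. No stimulated library reached an unstimulated one in these 3 comparisons. In KO-labelled cells with niacin the libraries overlapped, at 199, 207 and 235 CPM against 232 and 221 CPM (-0.09 ± 0.16, edgeR adjusted p = 0.664). Rrn3, the factor TIF-IA that brings the polymerase to its promoter, fell in 1 comparison, WT-labelled cells without niacin (-0.55 ± 0.20, edgeR adjusted p = 0.0298), lost in 4 of 11 alternatives.

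Of the 4 box C/D snoRNP proteins, 2 rose in KO-labelled cells with niacin and 2 without it, and 1 rose in each WT-labelled comparison. Fbl (ENSMUSG00000046865, chr7:28169710-28179269), fibrillarin, is the methyltransferase of the particle. Its level was 133, 149 and 135 CPM in stimulated KO-labelled cells with niacin, against 64.8 and 69.8 CPM (log2 fold change 1.04 ± 0.22, edgeR adjusted p = 0.000638). Under the WT label with niacin it was 122, 140.0 and 102 CPM after stimulation, against 76.7, 62.8 and 65.8 CPM (0.83 ± 0.19, edgeR adjusted p = 0.00127). In KO-labelled cells without niacin it was 118, 120.0 and 133 CPM, against 72.4, 69.3 and 128 CPM (0.46 ± 0.19, edgeR adjusted p = 0.0485). Only that last pair overlapped, through library 3 of the unstimulated cells, without which the log2 fold change was 0.80 ± 0.15. A processed transcript of Tulp4 holds a 674-base stretch 99.6% identical to the coding sequence of Fbl, and Tulp4 as a whole had 15768 counts beside 54712 for Fbl, so the counts of Fbl could be split between them.

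Nop56 and Nop58 are paired scaffold proteins of the same particle. Nop56 rose in KO-labelled cells with niacin (319, 355 and 380.5 CPM, against 211 and 209 CPM; log2 fold change 0.74 ± 0.20, edgeR adjusted p = 0.00521) and without it (0.82 ± 0.18, edgeR adjusted p = 0.000761). In WT-labelled cells it had 0.24 with niacin and 0.15 without, and did not pass. Nop58 (ENSMUSG00000026020, chr1:59684971-59719044) fell in WT-labelled cells with niacin, with 59.0, 51.0 and 87.9 CPM after stimulation, against 134, 109 and 95.1 CPM (-0.77 ± 0.18, edgeR adjusted p = 0.00158). In KO-labelled cells with niacin the stimulated libraries lay above the unstimulated ones, at 119, 126 and 130.4 CPM against 100.1 and 94.6 CPM, with no call (0.36 ± 0.21, edgeR adjusted p = 0.151). Nop56 ends at base 130279313 and its antisense neighbour Idh3b begins at 130279309, so only reads over that short stretch depend on strand. Polr1e and Fbxo10 (chr4:45034247-45036565) and Rrp9 and Parp3 (chr9:106475963-106476949) overlap over longer stretches. Reads there cannot be told apart if counting ignored strand, and the sources do not give that setting.

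In the box H/ACA particle, which makes pseudouridine and also belongs to telomerase, Nhp2 and Gar1 rose, and none of the 4 fell. Nhp2 (ENSMUSG00000001056, chr11:51619735-51623714) held 158, 198 and 192 CPM in stimulated KO-labelled cells with niacin, against 55.3 and 66.0 CPM (log2 fold change 1.59 ± 0.21, edgeR adjusted p = 5.59e-06). Stimulated WT-labelled cells with niacin held 143, 153 and 114 CPM, against 73.5, 54.1 and 49.4 CPM (1.21 ± 0.18, edgeR adjusted p = 1.49e-05). Without niacin its log2 fold change was 1.26 ± 0.18 in KO-labelled cells (edgeR adjusted p = 9.83e-06) and 0.70 ± 0.18 in WT-labelled cells (edgeR adjusted p = 0.00378). Stimulated and unstimulated libraries of Nhp2 did not overlap in any of the 4. Gar1, which binds the catalytic subunit, rose in 3 comparisons. In the remaining one, KO-labelled cells without niacin, it held 108, 111 and 119 CPM, against 49.4, 41.0 and 144 CPM (0.53 ± 0.30, edgeR adjusted p = 0.139). Its overlap came from library 3 of the unstimulated cells, without which Gar1 rose (1.32 ± 0.17). Dkc1, the pseudouridine synthase itself, had log2 fold changes from -0.44 to 0.47 and Nop10 from -0.17 to 0.32, with no call for either.

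**Figure D2:**
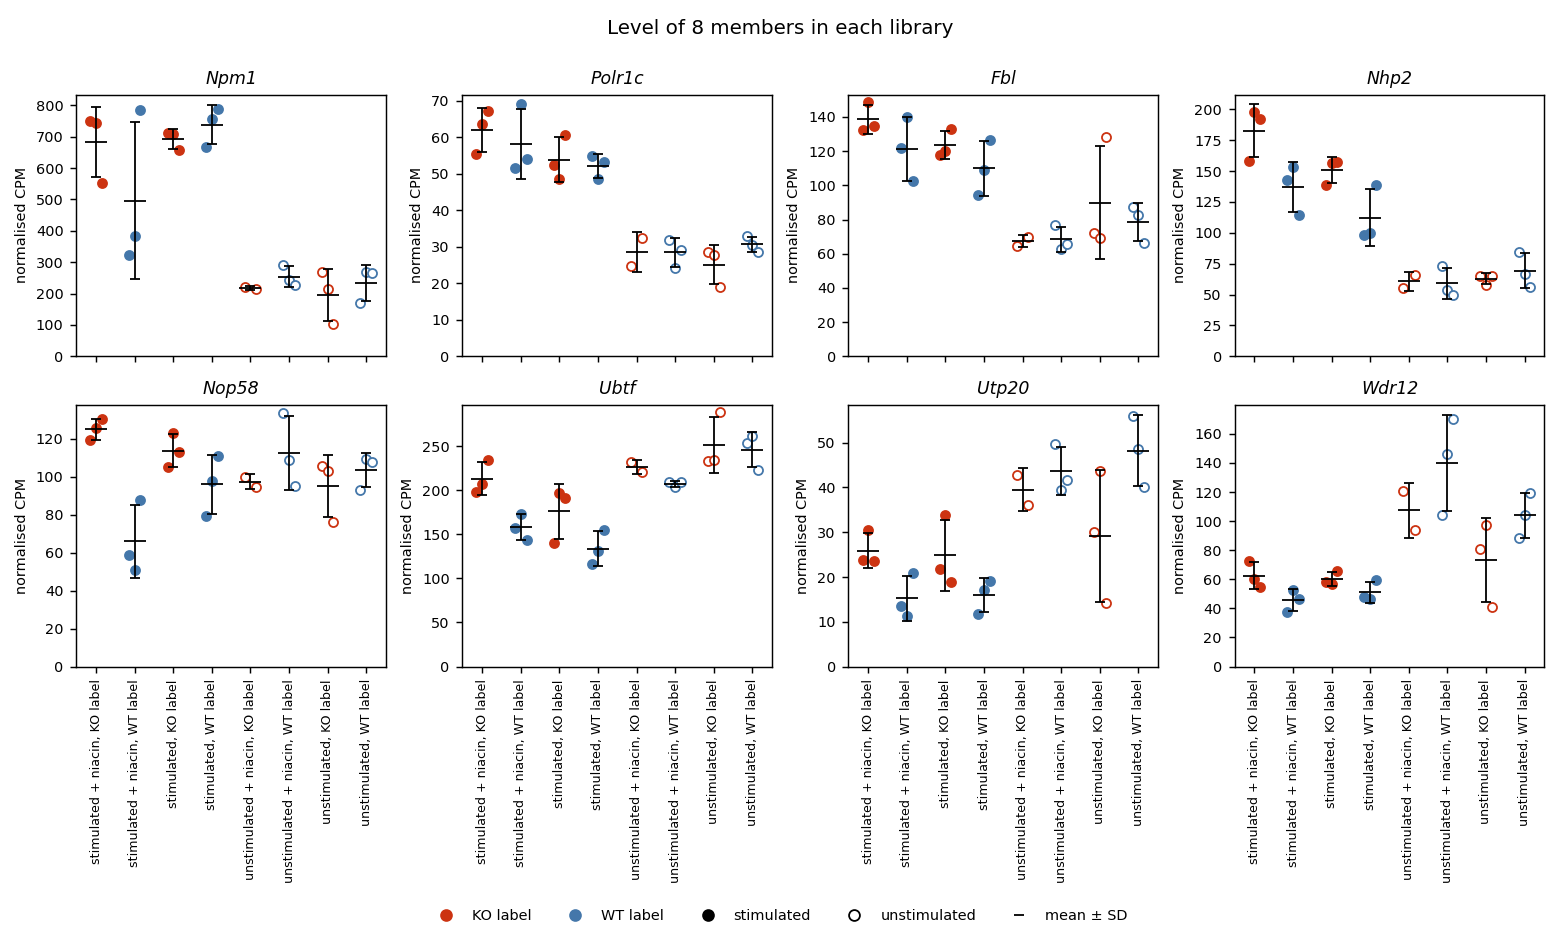
CPM of 8 members (Npm1, Polr1c, Fbl, Nhp2, Nop58, Ubtf, Utp20 and Wdr12) in each library (points), with the mean ± SD of each of the 8 groups. Stimulated groups of Npm1, Polr1c and Nhp2 lie above their unstimulated groups throughout, and for Utp20 the 6 stimulated WT-labelled libraries, at 11.3 to 20.9 CPM, lie below the 6 unstimulated ones, at 39.4 to 56.0 CPM.

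The plot of CPM by library shows both directions side by side. Among the 9 small subunit assembly members, 3 rose in KO-labelled cells with niacin and 3 without it, and none fell; in WT-labelled cells 1 rose and 3 fell with niacin, and 1 rose and 2 fell without it. Nob1, the nuclease that makes the final cut of 18S ribosomal RNA, rose in all 4. It held 122, 131 and 115 CPM in stimulated WT-labelled cells with niacin, against 69.6, 72.2 and 72.8 CPM (log2 fold change 0.78 ± 0.13, edgeR adjusted p = 3.32e-05). Utp4 and Wdr75, subunits of the early complex that binds the 5′ end of the precursor, rose in both KO-labelled comparisons, with log2 fold changes of 0.63 and 0.67 with niacin and 0.83 and 0.94 without it. With niacin the call of Wdr75 was lost in 7 of 10 alternatives and that of Utp4 in 3. Their values in WT-labelled cells lay between -0.19 and 0.17.

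Utp20 (ENSMUSG00000004356, chr10:88746607-88826804) fell in both WT-labelled comparisons. It held 13.6, 11.3 and 20.9 CPM in stimulated cells with niacin, against 49.6, 39.4 and 41.7 CPM (log2 fold change -1.51 ± 0.32, edgeR adjusted p = 0.00048). Without niacin it held 11.7, 17.1 and 19.1 CPM, against 56.0, 48.6 and 40.2 CPM (-1.59 ± 0.32, edgeR adjusted p = 0.000375). In KO-labelled cells with niacin it held 23.7, 30.5 and 23.5 CPM, against 42.9 and 36.2 CPM, without overlap and without a call (-0.61 ± 0.34, edgeR adjusted p = 0.144). Rrp12, known in yeast as an export factor of pre-ribosomes, fell in WT-labelled cells with niacin (-0.60 ± 0.21, edgeR adjusted p = 0.0213) and without it (-0.80 ± 0.21, edgeR adjusted p = 0.00405). Nop14, a processome protein, fell by 0.31 on the log2 scale in WT-labelled cells with niacin (SE 0.13, edgeR adjusted p = 0.0488), a call lost in 7 of 12 alternatives.

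The 8 large subunit assembly members gave 5 rises and 1 fall in KO-labelled cells with niacin, 4 rises and 2 falls in WT-labelled cells with niacin, 4 rises and no fall in KO-labelled cells without niacin, and 2 rises and 2 falls in WT-labelled cells without niacin. Pes1, Bop1 and Wdr12 form 1 complex, PeBoW, which matures the 5.8S and 28S ribosomal RNAs. Pes1 rose in 3 comparisons, with log2 fold changes of 0.80 ± 0.22, 0.69 ± 0.19 and 0.84 ± 0.19, and had 0.33 ± 0.19 in WT-labelled cells without niacin. Bop1 rose in 1 comparison, KO-labelled cells with niacin (0.65 ± 0.25, edgeR adjusted p = 0.0404), and that call was lost in 6 of 10 alternatives, with DESeq2 among them (adjusted p = 0.0623).

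Wdr12 (ENSMUSG00000026019, chr1:60069785-60098645) fell in 3 comparisons, in 2 of which Pes1 rose. It held 37.4, 52.8 and 46.6 CPM in stimulated WT-labelled cells with niacin, against 104, 146 and 169.9 CPM (log2 fold change -1.62 ± 0.24, edgeR adjusted p = 1.57e-05). In WT-labelled cells without niacin it held 47.7, 46.2 and 59.3 CPM, against 88.7, 104 and 119 CPM (-1.03 ± 0.24, edgeR adjusted p = 0.0017). In KO-labelled cells with niacin it held 72.8, 60.2 and 54.4 CPM, against 121 and 94.1 CPM (-0.78 ± 0.26, edgeR adjusted p = 0.0183). These 3 comparisons had no overlap. The merged exons of Wdr12 span 11955 bases and it overlaps the antisense gene Carf, so its counts may hold reads of other transcripts.

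Nop2, the methyltransferase of 28S ribosomal RNA, rose in 3 comparisons, by a log2 fold change of 1.00 ± 0.21 in KO-labelled cells with niacin (156, 173 and 203 CPM, against 88.5 and 88.8 CPM; edgeR adjusted p = 0.000634), and its call in WT-labelled cells with niacin was lost in 8 of 12 alternatives. Nop16 had 1.21 ± 0.24, 0.80 ± 0.20, 1.17 ± 0.21 and 0.68 ± 0.20, and Rrp1b, a cofactor of precursor processing, had the most even rise of the 36, at 1.09 ± 0.18, 1.00 ± 0.16, 0.97 ± 0.16 and 0.93 ± 0.16. In both lists of values the order is KO label with niacin, WT label with niacin, KO label without niacin and WT label without niacin. Ftsj3, a methyltransferase of the large subunit pathway, fell in WT-labelled cells with niacin (-0.62 ± 0.20, edgeR adjusted p = 0.0139) and without it (-0.66 ± 0.20, edgeR adjusted p = 0.011), and had 0.21 and 0.33 in KO-labelled cells. Rrs1, which loads the 5S particle, held 67.5, 84.0 and 96.2 CPM in stimulated KO-labelled cells without niacin, against 65.1, 51.4 and 198 CPM, and the value of 198 CPM belongs to library 3.

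Counting libraries alone, 27 members lay above in every stimulated library and 3 below in KO-labelled cells with niacin, beside 35.4% and 39.4% of all genes in a comparison with only 2 unstimulated libraries. The counts were 13 above and 8 below in WT-labelled cells with niacin (30.2% and 32.8% of all genes), 15 and 1 in KO-labelled cells without niacin (27.8% and 27.0%), and 9 and 9 in WT-labelled cells without niacin (30.3% and 30.6%). Coding length moved with the fold change: Spearman's rho across the 36 members was -0.54, -0.58, -0.37 and -0.59 in the 4 comparisons, in the order KO and WT label with niacin, then without. Over 12947 protein-coding genes it was -0.21, -0.20, -0.19 and -0.20. With GC content of the coding sequence, rho was 0.36, 0.54, -0.04 and 0.23 across the members. Over the same protein-coding genes it was 0.12, 0.32, -0.03 and 0.13. Members share libraries, and these correlations are descriptions. The parts of length and GC content in the result were not tested.

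**Figure D3:**
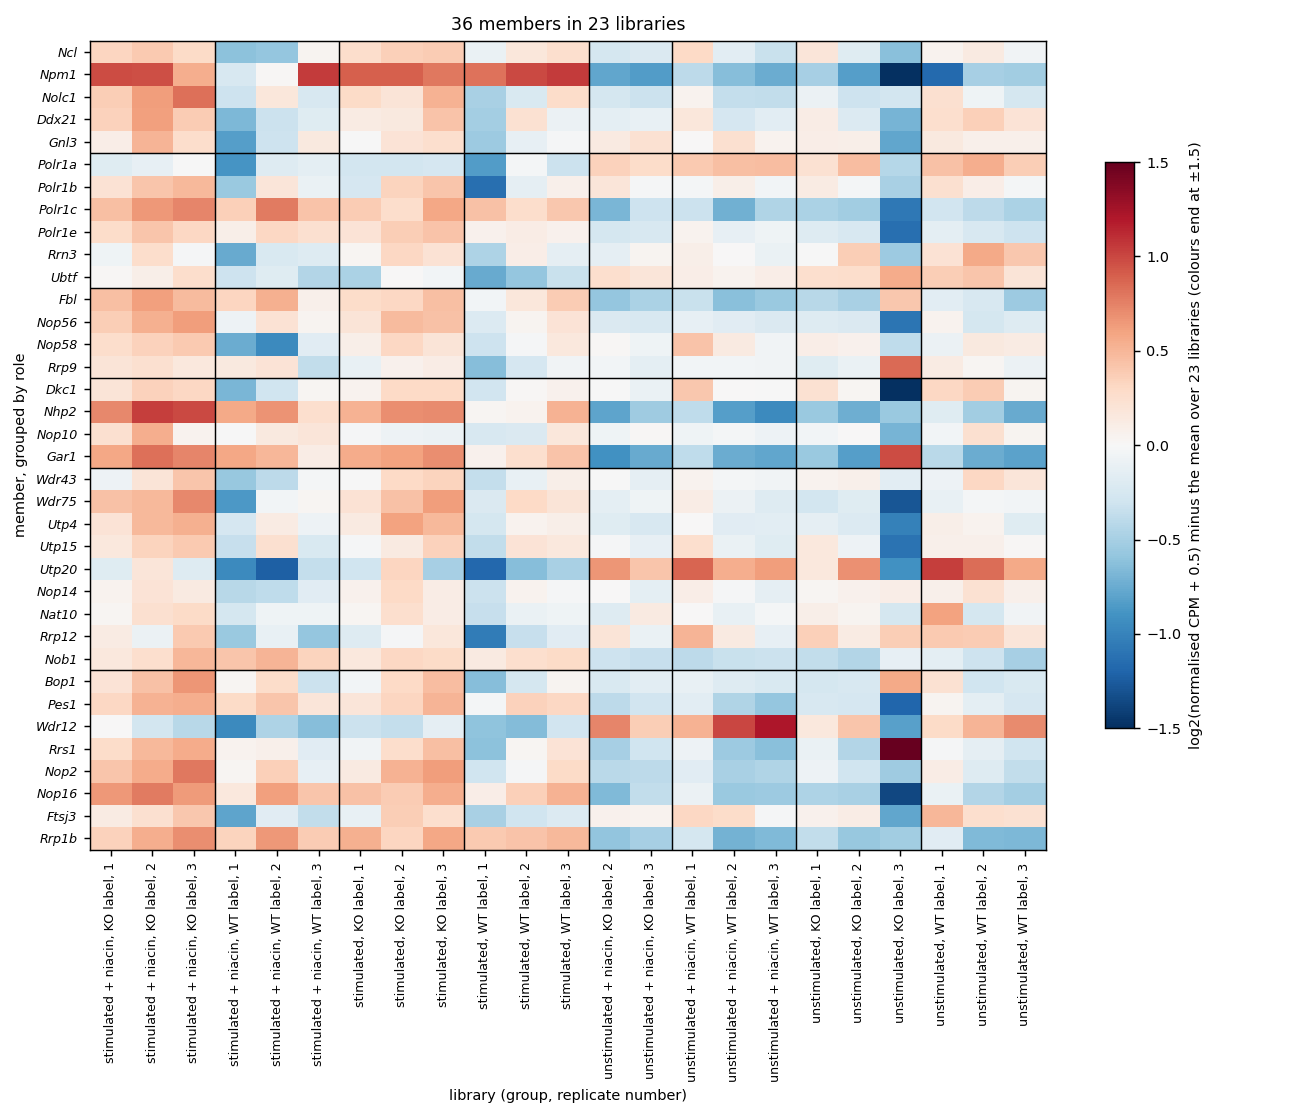
Log2(CPM + 0.5) of the 36 members (rows, by role) in the 23 libraries (columns, by group), each minus the mean of that member over all libraries, with colours ending at 1.5 in either direction. Library 3 of the unstimulated KO-labelled cells without niacin stands apart from its group, with 18 members more than 1.5-fold below it and 5 above.

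The heat map also shows that libraries 1 and 2 of the stimulated WT-labelled cells with niacin differ from library 3. Other genes of the pathway, none of them members, are read against the 21.7% to 27.5% of all genes that passed in each direction of each comparison. Of 46 further small subunit assembly genes tested, 19 rose and 3 fell in KO-labelled cells with niacin, 10 rose and 12 fell in WT-labelled cells with niacin, 16 rose and 1 fell in KO-labelled cells without niacin, and 7 rose and 11 fell in WT-labelled cells without niacin. Of 45 further large subunit genes, 18 rose and 1 fell, 12 rose and 10 fell, 18 rose and 2 fell, and 8 rose and 8 fell in the same order. Mdn1, a very large AAA ATPase of large subunit assembly, fell in every comparison, with log2 fold changes of -1.85, -2.17, -1.20 and -1.97 (edgeR adjusted p at most 0.00152).

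Further RNA polymerase I and ribosomal DNA factors, 20 in all, gave 5 rises and 5 falls, 5 and 4, 4 and 5, and 2 and 5 in that order. Polr1d, the partner of Polr1c in polymerases I and III, rose in all 4 comparisons (1.02, 1.16, 0.79 and 0.96), and Taf1c, a subunit of the selectivity factor SL1, fell in all 4 (-1.02, -0.70, -1.57 and -0.98). The 16 snoRNP assembly and host genes had 12, 13, 11 and 11 rises and 0, 1, 0 and 1 falls, and the 23 exosome and nuclease genes 14, 8, 13 and 7 rises and 0, 2, 1 and 0 falls. Of 22 RNA polymerase III genes, 6, 6, 5 and 5 rose and 4, 6, 5 and 6 fell.

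Myc averaged 702 CPM in stimulated KO-labelled cells with niacin and 224 CPM in unstimulated cells, and rose (log2 fold change 1.65 ± 0.25, edgeR adjusted p = 2.2e-05). In WT-labelled cells with niacin it averaged 847 CPM after stimulation and 224 CPM without it (1.92 ± 0.22, edgeR adjusted p = 4.84e-07). Without niacin it rose by 1.23 ± 0.21 in KO-labelled cells and by 1.58 ± 0.22 in WT-labelled cells. Mxd4, a repressor of the same network, fell in all 4 comparisons (-1.68, -0.85, -1.69 and -0.82), while Mxi1, a repressor of the same family, rose in all 4 (1.64, 1.88, 1.57 and 1.80).

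KO-labelled and WT-labelled cells were then compared within each condition. In stimulated cells with niacin 2 members rose and 0 fell in KO-labelled cells, where 0.575% of all genes rose and 0.865% fell, and the log2 fold change was above 0 for 35 of the 36 members (median 0.45), beside 47.7% of all genes. Nop58 held 119, 126 and 130.4 CPM in KO-labelled cells, against 59.0, 51.0 and 87.9 CPM in WT-labelled cells (log2 fold change 0.92 ± 0.18, edgeR adjusted p = 0.018). Ddx21 held 88.3, 106 and 90.0 CPM, against 43.1, 55.3 and 61.0 CPM (0.83 ± 0.20, edgeR adjusted p = 0.0415). Neither gene had overlapping libraries, and library 3 was the highest of the WT-labelled ones for both. By adjusted p, Nolc1 and Ncl came next at 0.74 (edgeR adjusted p = 0.056) and 0.69 (edgeR adjusted p = 0.0688). At an unadjusted p under 0.05 there were 17 members, beside 19.4% of all genes, and in 21 every KO-labelled library lay above every WT-labelled one, beside 12.5% of all genes.

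This count turned on the stimulated WT-labelled libraries with niacin. Without library 3 of that group 8 members rose, where 4.3% of all genes did, and without library 1, without library 2 or without both, 0 did (0.0222% of all genes rose without both). It was also 0 without library 2 or without library 3 of the KO-labelled cells, and 1 without library 1. With DESeq2 7 members passed: Wdr75, Nop58, Ncl, Nop14, Ddx21, Ftsj3 and Nolc1. The share of all genes that DESeq2 called here is not given, and the edgeR shares cannot stand in for it. The 4 pathway genes named by the same rule were Pno1 (1.21), Ltv1 (1.01), Ddx51 (0.74) and Dis3 (0.83), all higher in KO-labelled cells.

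In stimulated cells without niacin, 0 members passed with edgeR, where 0.113% of all genes did. The log2 fold change was above 0 for 35 of the 36 (median 0.32), beside 47.2% of all genes. At an unadjusted p under 0.05 there were 8, beside 8.45% of all genes. In 8 the KO-labelled libraries all lay above, beside 9.34% of all genes. The lowest adjusted p was 0.446, for Ubtf, at 140.4, 197 and 191 CPM in KO-labelled cells against 116, 131 and 155 CPM in WT-labelled cells, which overlap. In unstimulated cells without niacin 0 passed (0.0415% of all genes did), and 7 had an unadjusted p under 0.05, beside 10.4% of all genes. The log2 fold change was below 0 for 28 of the 36, where 48.5% of all genes were above 0. Without library 3 of the KO-labelled cells the median of these log2 fold changes was -0.10, beside -0.22 with it. In unstimulated cells with niacin 0 passed (0.0355% of all genes did), and 0 had an unadjusted p under 0.05, beside 0.983% of all genes. There 26 were below 0, with a median of -0.05, where 46.3% of all genes were above 0. DESeq2 gave 0 in each of these 3 comparisons. Averaged over the 4 conditions, 0 members passed with edgeR or DESeq2 (0.326% of all genes did with edgeR). In this average 27 lay above 0 (49.4% of all genes) and 6 had an unadjusted p under 0.05 (9.87% of all genes).

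**Figure D4:**
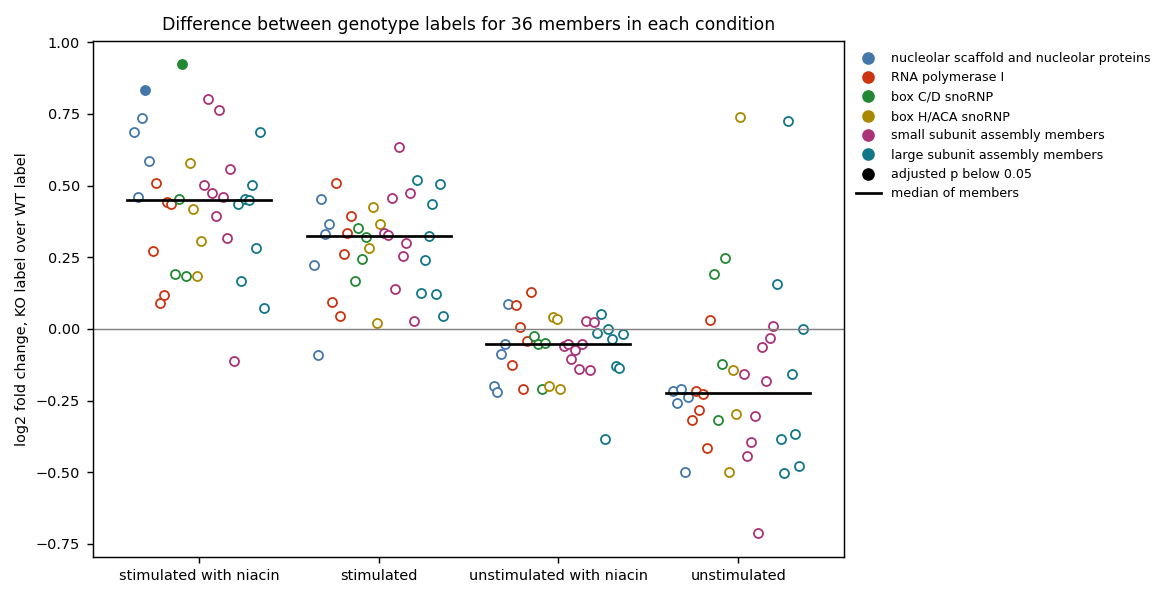
Log2 fold change of KO-labelled over WT-labelled cells for each of the 36 members (points) in stimulated cells with niacin, stimulated cells, unstimulated cells with niacin and unstimulated cells, with the median as a line. The medians are 0.45, 0.32, -0.05 and -0.22, and only Nop58 and Ddx21 in stimulated cells with niacin passed the test.

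Whether stimulation acted differently under the 2 genotype labels was tested as an interaction in cells without niacin. With edgeR 0 of the 36 members passed, where 0.00592% of all genes did, and DESeq2 also gave 0. The difference of the log2 fold changes, KO label minus WT label, was above 0 for 33 members (47.0% of all genes), with a median of 0.49. It had an unadjusted p under 0.05 for 12 members (10.5% of all genes). Without library 3 of the unstimulated KO-labelled cells it was above 0 for 35, with a median of 0.42. The lowest adjusted p was 0.419 for Ftsj3 (difference 0.99 ± 0.28), and Utp20 had 1.35 ± 0.44. With no filter on low counts, Utp20 (1.29, edgeR adjusted p = 0.00925) and Ftsj3 (0.94, edgeR adjusted p = 0.0396) passed. The share of all genes called in that run is not given. Without niacin, the larger number of rises under the KO label is thus not shown by the main test to differ for any single member. The same interaction was not tested in cells with niacin. The plot of genotype differences by condition rests on the same libraries as the stimulation comparisons, so it is no second measurement.

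Niacin was compared within 4 backgrounds, and 0 members passed in any of them with edgeR or with DESeq2. Of all genes 0.00592% passed in stimulated KO-labelled cells and 0.0% in the other 3. In stimulated KO-labelled cells the log2 fold changes ran from -0.12 to 0.35, with 1 member at an unadjusted p under 0.05 (Nop10), beside 5.22% of all genes. In stimulated WT-labelled cells they ran from -0.57 to 0.31, with 2 such members, beside 9.96% of all genes. Nop58 had the lowest adjusted p there, 0.406, at 59.0, 51.0 and 87.9 CPM with niacin, against 79.5, 97.7 and 111 CPM without, and the 2 groups overlap at 1 library. In unstimulated KO-labelled cells 3 members had an unadjusted p under 0.05, beside 7.96% of all genes. Gar1 stood lowest there, at 38.6 and 42.9 CPM with niacin against 49.4, 41.0 and 144 CPM without. In unstimulated WT-labelled cells the values ran from -0.41 to 0.43, and 0 had an unadjusted p under 0.05, beside 2.71% of all genes. Without library 3 of the stimulated WT-labelled cells with niacin, 3 members fell with niacin there (Npm1, Nop58 and Ncl), where 3.12% of all genes fell. Averaged over the 4 backgrounds, 0 members passed with edgeR or DESeq2 (0.154% of all genes did with edgeR). In this average 0 had an unadjusted p under 0.05, beside 6.33% of all genes. Tests of whether niacin acted differently in stimulated cells gave 0 calls with both tools under either label. They had 2 members each at an unadjusted p under 0.05, beside 6.77% of all genes under the KO label and 7.36% under the WT label. The test of a genotype difference in the niacin effect in stimulated cells also gave 0. At an unadjusted p under 0.05 there was 1 member, Nop58 (0.68 ± 0.26, edgeR adjusted p = 0.925), beside 5.18% of all genes.

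The libraries that stood apart also differed from their groups by base composition. Libraries 1 and 2 of the stimulated WT-labelled cells with niacin, set over library 3, had log2 ratios that followed the GC content of the coding sequence, with a Spearman's rho of 0.87 across the 36 members and 0.61 over 12947 protein-coding genes. Library 3 of the unstimulated KO-labelled cells was set over the other 2 libraries of its group. There rho was 0.72 across the members and 0.59 over the same protein-coding genes. The genotype difference in stimulated cells with niacin had a rho with GC content of -0.54 across the members and -0.44 over the protein-coding genes. Without niacin the values were 0.12 and -0.03. With coding length, the genotype difference with niacin had a rho of 0.47 across the members and -0.04 over the protein-coding genes. Without niacin these were 0.49 and -0.03. Members share libraries and depth, and these are descriptions. The parts of GC content and coding length in the genotype difference were not tested.

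**Figure D5:**
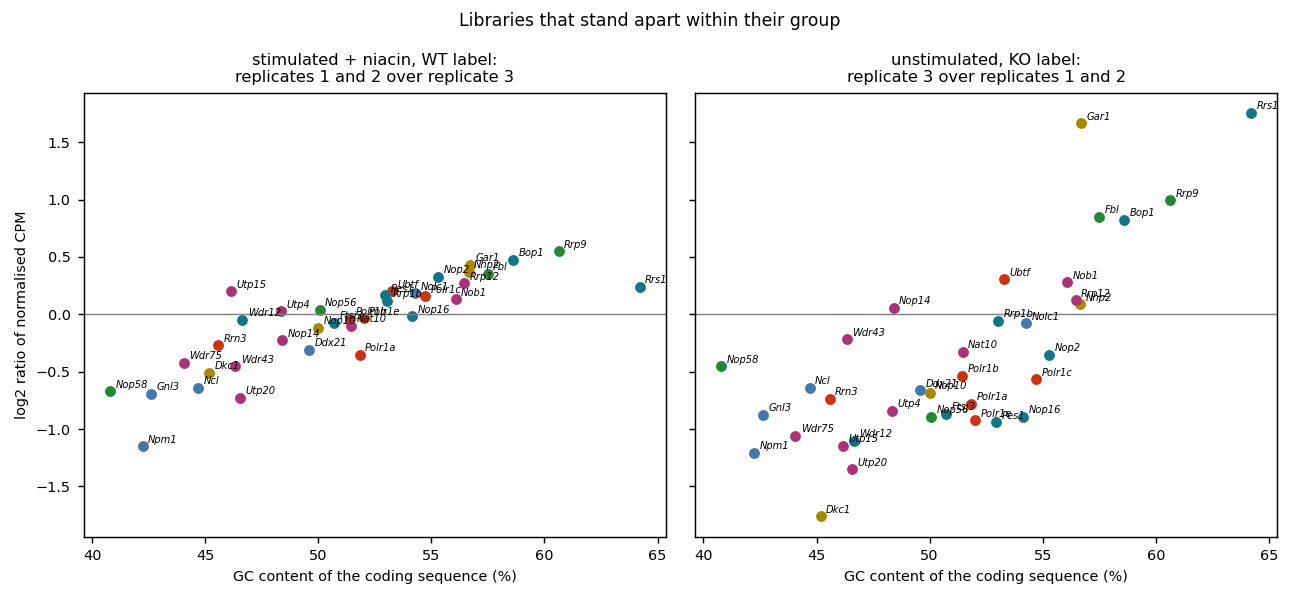
Log2 ratio of CPM against the GC content (%) of the coding sequence for the 36 members (points): left, the mean of libraries 1 and 2 over library 3 of the stimulated WT-labelled cells with niacin; right, library 3 over the mean of libraries 1 and 2 of the unstimulated KO-labelled cells. Members with more GC lie higher in both panels (Spearman's rho 0.87 and 0.72).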

How the data were processed

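The deposited values were raw counts of reads per gene, made by the authors with Trimmomatic 0.38, STAR 2.7.0e and featureCounts 1.6.3 against GRCm38.p5 or mm10, per the submitters' processing notes. Those notes name no strand setting or annotation release. RNA had been amplified with SMART-seq V4 and sequenced as paired ends, per the labels' protocols. Coordinates of genes are those of the deposited table, and 32 of the 36 members had the same ones in GENCODE vM21, which gave symbols to 53274 of the 53379 IDs. No column of values was left without a sample.

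The test was edgeR 4.0.16's quasi-likelihood F test, with TMM factors and filterByExpr at a minimum count of 10, in 1 fit of the 8 group means to all 23 libraries, and with Benjamini-Hochberg adjustment over all 16882 genes in each of 18 comparisons and a threshold of 0.05. The common coefficient of variation was 27.4%, with 15 residual degrees of freedom. CPM are TMM-normalised, and SE is the absolute log2 fold change divided by the square root of its quasi-likelihood F statistic. R 4.3.3, limma 3.58.1, Python 3.11.15, pandas 2.3.3, matplotlib 3.10.9 and blastn 2.17.0 were used. The procedure was tested on simulated counts. Alternatives were RLE factors, no filter, DESeq2 1.42.0, a replicate block, only the compared groups, and leaving out libraries.

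The members and gene lists were chosen with earlier results of these data known. Members named with values per library were, per role, up to 3 of largest change past the threshold and any moving against its role; a few others were added after their values were seen. Other pathway genes named were up to 2 per list and direction, at 5 CPM or more, with Myc, Mxd4 and Mxi1 in every case. The labels do not say that replicates came from separate animals, and a p-value here covers only the spread among such libraries, which may be technical. Over all tested genes, 77 pairs of libraries with the same number had deviations correlating at -0.27 to 0.29, and 8 pairs exceeded 0.1. The main fit did not pair libraries by number. Among the members, the median log2 ratio of library 1 to the others of its group differed by stimulation. In stimulated cells it was -0.34 and -0.23 (WT label, without and with niacin) and -0.20 and -0.20 (KO label). In unstimulated cells it was 0.15 and 0.25 (WT label) and 0.23 (KO label without niacin). This pattern by number was not tested. Promoters are RefSeq sequences (GRCm38.p6).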

Additional observations from a re-analysis of the deposited data

How the results depend on the processing

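Of the 70 calls of a member in a comparison, 35 passed in every alternative, the other 35 lost the threshold in at least 1, and 0 reversed direction. The number of members called after stimulation lay at 11 to 17 in KO-labelled cells with niacin when 1 library was left out (11 without library 2 of the unstimulated cells), 13 to 18 in WT-labelled cells with niacin, 13 to 19 in KO-labelled cells without niacin and 11 to 15 in WT-labelled cells without niacin. It was 7 in WT-labelled cells with niacin without libraries 1 and 2 of the stimulated group, and 8 in KO-labelled cells without niacin in a fit of only the compared groups. For the genotype label in stimulated cells with niacin it was 7 with DESeq2, 7 with no filter, 1 with the replicate block, 0 without libraries 1 and 2 of the WT-labelled group, and 0 to 8 without 1 library. With no filter on low counts it was 2 for niacin in unstimulated KO-labelled cells, 2 for the genotype label in unstimulated cells, 1 for niacin by stimulation under the KO label, 2 for genotype by stimulation and 1 for the genotype average. Niacin in stimulated WT-labelled cells gave 0 to 3 without 1 library. The replicate block moved no other count by over 1.5 times, and the cause of these changes was not tested. Shares of all genes in the same runs are not set beside these counts, which show only how the number of called members moved. All 36 members passed the filter on low counts; what the lower depth of library 3 of the unstimulated KO-labelled cells contributes was not tested.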
